A study of Mus musculus with 77 samples.

Results

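The cone phototransduction genes are the 10 genes whose products carry the light response in the outer segments of cones. They are the short-wave opsin Opn1sw, the middle-wave opsin Opn1mw, the cone arrestin Arr3, the cone transducin subunits Gnat2, Gnb3 and Gngt2, the cone phosphodiesterase subunits Pde6c and Pde6h, and the cone channel subunits Cnga3 and Cngb3. They were chosen by name, and every non-control probe whose transcript carries the symbol of a member was taken. This gave 10 of 21154 genes with a symbol and 14 of 28026 probes with a symbol, and none of these probes was saturated on any array.

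The retinas came from C57BL/6 mice in a model of retinopathy of prematurity, oxygen-induced retinopathy (OIR). OIR pups breathed 75% oxygen from postnatal day 7 (P7) to P12 and room air afterwards, and control pups stayed at 21%. RNA from both pooled retinas of each mouse was hybridized against a universal mouse reference RNA on a 2-color array. Whole litters were assigned to an oxygen level, and the litter of a mouse is not given, so litter could not be part of the models. The P12 groups held 13 OIR and 12 control animals. There were 13 and 12 at P17. At P28 the numbers were 13 and 14, which makes 77 arrays.

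In a cone, light changes the shape of an opsin, which activates transducin, whose alpha subunit Gnat2 relieves the phosphodiesterase Pde6c of its inhibitory subunit Pde6h. The enzyme lowers cyclic GMP, the channel of Cnga3 and Cngb3 closes and the cone hyperpolarizes, after which arrestin binds the opsin and ends its signal. Cones are a small minority beside the rods of the mouse retina, and their transduction proteins accumulate as outer segments grow after birth.

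Values are log2 ratios of the retina channel to the reference channel. The labels give Cy5 to the retina, but transcripts of rods were far brighter in Cy3 on 77 of 77 arrays, by at least 5.53 (Sag), 6.22 (Gnat1) and 2.05 (Pde6b) on the log2 scale. The ratio is therefore Cy3 over Cy5, against the dyes named in the labels. In the retina channel 13 of 14 probes were well above background on all 77 arrays. The Opn1sw probe was so on 68, with 9 of 12 control and 8 of 13 OIR arrays at P12 and all arrays at P28. The reference held little of several members: it was well above background on 4 arrays for Opn1sw, 11 for Cnga3, 0 for Cngb3 and 34 for Pde6c, and on 77 for Gngt2.

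The arrays differed in brightness by slide. On slides 4, 5, 6 and 9 a median of 27902 probes at P12, 27387 at P17 and 33004 at P28 exceeded background clearly in the retina signal, against 19622.5, 19622.5 and 20187 on the other slides. The ranges overlapped at P12 (24400 to 28853 against 15960 to 24707) and at P17 (20913 to 29993 against 13765 to 22256). At P28 they did not (30817 to 34306 against 16887 to 20967). Slides 4, 5, 6 and 9, the brighter slides, held 5 of the P12, 7 of the P17 and 20 of the P28 arrays. At P12 these were 2 of 13 OIR and 3 of 12 control arrays. They were 2 of 13 and 5 of 12 at P17, and 11 of 13 and 9 of 14 at P28. The share of brighter arrays thus differed between the oxygen groups of a day. Both oxygen groups were present on 7 slides at P12, 6 at P17 and 3 at P28, and the OIR arrays of P17 and P28 shared 1 slide. Age from P17 to P28 therefore goes with slide and brightness, and values from a model with the slide as a block stand beside the results.

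**Figure D1:**
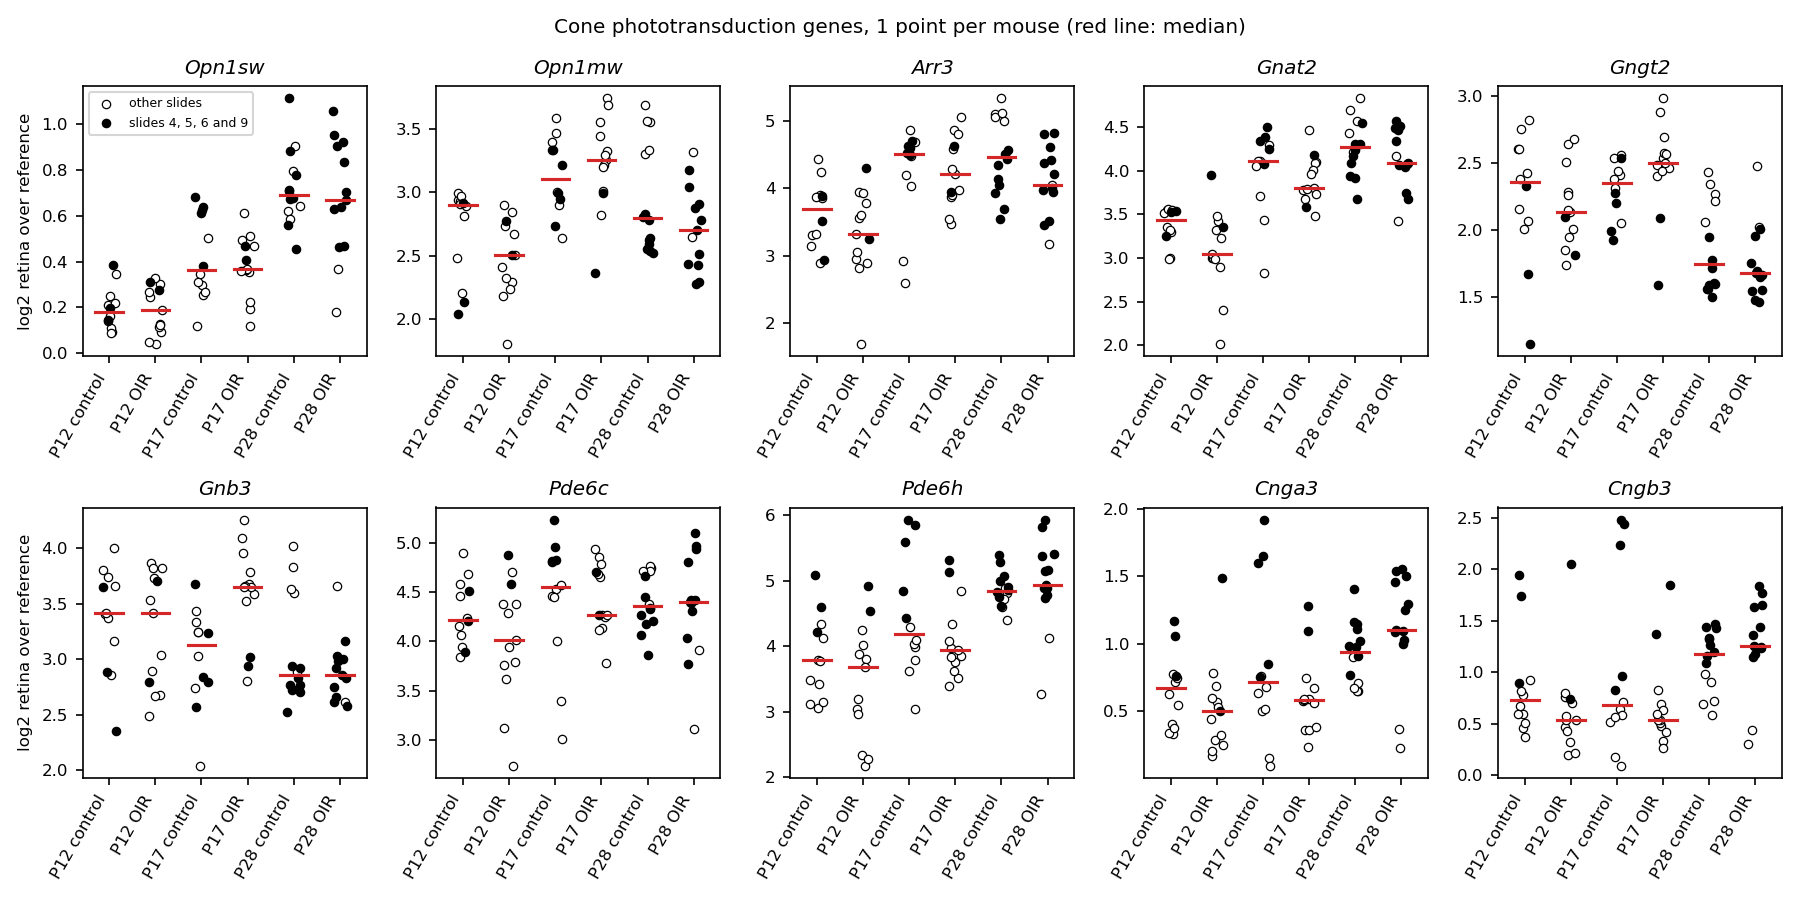
Log2 ratio of retina to reference for the 10 genes (vertical axes) by age and oxygen group, with 1 point per mouse and the group median as a line; filled points are arrays on slides 4, 5, 6 and 9. The OIR and control groups of each day overlap for every gene.

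At P12, the end of the oxygen exposure, 0 of 10 cone genes passed the test of OIR against control (limma, adjusted p below 0.05 over 55681 probes), where 0.0216% of all probes did, and 0 had an unadjusted p below 0.05 (3.13% of all probes). The samples are whole retinas, so fewer cones and less RNA per cone cannot be told apart. The differences of the brightest probes had a median of -0.21 against -0.00065 over all probes, and 0 of 10 were above 0. By the slide model 1 of 10 were above 0 with a median of -0.072, and in the deposited values 5 of 10 were. The common direction thus depended on the processing. The ratio of Gnat2 ran from 2.01 to 3.95 with a median of 3.04 in OIR mice and from 2.99 to 3.56 with a median of 3.43 in controls. The groups overlapped, and 11 of 13 OIR values were under the median of the controls.

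At P17, when new vessels form in this model, 0 of 10 passed by limma, beside 1.14% of all probes, and 1, Gnb3, had an unadjusted p below 0.05, beside 10.4%. Gnb3 encodes the beta subunit of cone transducin and is also expressed in ON bipolar cells. Its ratio ran from 2.81 to 4.26 with a median of 3.66 in OIR mice and from 2.04 to 3.68 with a median of 3.13 in controls. The groups overlapped, and 10 of 13 OIR mice lay above the control median. The log2 difference was 0.57 (95% confidence interval 0.22 to 0.92, limma adjusted p = 0.131), and it was positive on 6 of 6 slides that held both groups, from 0.27 to 1.07. The slide model gave 0.50 (adjusted p = 0.0898) and the deposited values 0.52 (adjusted p = 0.632). On the brighter slides the mean was 2.98 ± 0.056 (SD, n = 2) for OIR and 3.02 ± 0.44 (SD, n = 5) for control arrays. On the other slides, a split chosen after seeing the data, it was 3.70 ± 0.37 (SD, n = 11) and 3.01 ± 0.48 (SD, n = 7). The difference passed on the slides with both groups alone, at 0.50 (adjusted p = 0.0471), where 1 of 10 cone genes and 3.89% of all probes passed. It also passed in the retina channel without the reference, at 0.70 (adjusted p = 0.00543), where 1 of 10 and 2.99% of all probes did. Among the second probes of the cone genes that of Pde6c passed there too, at 0.29 (adjusted p = 0.0216), while its brightest probe had 0.085 (adjusted p = 0.783). In the ratio the second probe had 0.036 (adjusted p = 0.952).

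The other cone genes at P17 had differences from -0.34 (Pde6h) to 0.18 (Gngt2). The 95% interval ran from -0.49 to 0.51 for the arrestin Arr3 and from -0.42 to 0.19 for Gnat2. Changes of either sign lie within these intervals. Pde6h, the inhibitory subunit of the phosphodiesterase, turned to 0.29 in the deposited table, 0.042 with an offset of 0 and 0.084 without slides 4, 5, 6 and 9 (limma adjusted p = 0.737, 0.941 and 0.950), the last an alternative chosen after seeing the data. Its mean on the other slides was 3.925 in OIR (n = 11) and 3.841 in control arrays (n = 7). It was 5.231 (n = 2) and 5.33 (n = 5) on slides 4, 5, 6 and 9. Of the 10 genes 5 had a difference above 0, 6 by the slide model, 8 in the deposited table and 10 without those slides.

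At P28, 0 of 10 passed by limma, beside 0.0611% of all probes, and 0 had an unadjusted p below 0.05, beside 7.44%. By the slide model 0 passed (0.219% of all probes) and 2 of 10 had such a p, beside 10.8%. Those were the channel subunit Cnga3 at 0.19 and the phosphodiesterase Pde6c at 0.24 (adjusted p = 0.248 and 0.384), both with the higher value in OIR. Arr3 ran from 3.17 to 4.82 with a median of 4.05 in OIR mice and from 3.55 to 5.33 with a median of 4.47 in controls. The groups overlapped, and 10 of 13 OIR values were under the median of the controls. The log2 difference was -0.38 (95% interval -0.80 to 0.034, limma adjusted p = 0.682) and turned to 0.029 (adjusted p = 0.958) by the slide model. On the brighter slides the mean was 4.19 ± 0.47 (SD, n = 11) for OIR and 4.13 ± 0.36 (SD, n = 9) for control arrays. On the other slides, an alternative chosen after seeing the data, it was 3.61 ± 0.62 (SD, n = 2) and 5.12 ± 0.13 (SD, n = 5). There the difference was -1.51 (limma adjusted p = 0.00897), and 5 of 10 cone genes passed, Opn1sw, Arr3, Pde6c, Pde6h and Cnga3, each lower in OIR, beside 8.18% of all probes. These OIR arrays lay on other slides than the controls, so slide and oxygen cannot be told apart in that comparison. On the slides that held both groups, where 0 of 10 passed (0.138% of all probes), Cnga3 and Pde6h were above control in OIR on 3 of 3 slides each, and Opn1sw, Arr3 and Pde6c on 2 of 3 each.

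**Figure D2:**
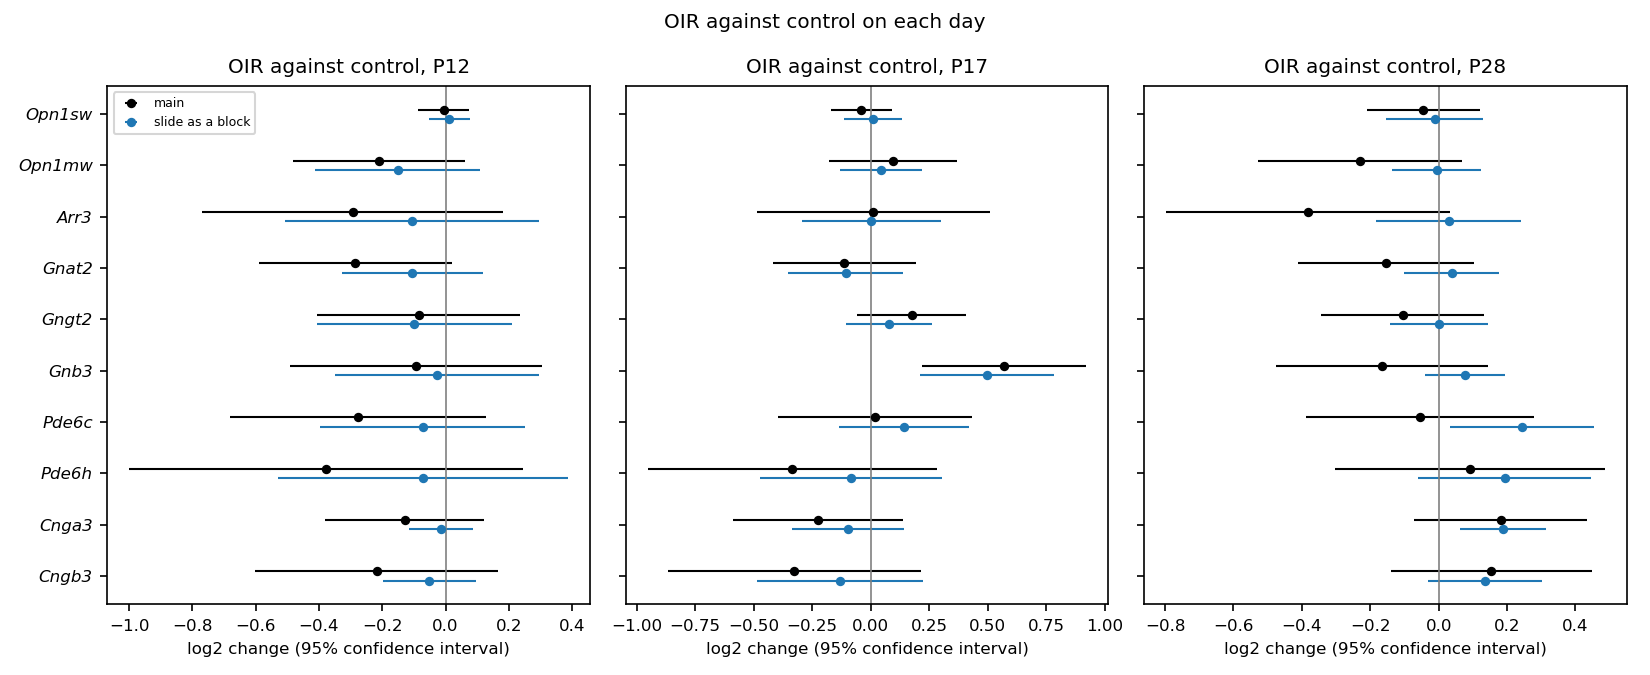
Log2 difference between OIR and control mice (horizontal axes) for the 10 genes at P12, P17 and P28, with 95% confidence intervals, from models without the slide (black, main) and with the slide as a block (blue). At P17 Gnb3 is the gene whose interval lies above 0 in both models.

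The change of the OIR effect between days was tested as a contrast of its own. By limma it passed for 0 of 10 cone genes from P12 to P17 (0.487% of all probes), 0 from P17 to P28 (0.278%) and 0 from P12 to P28 (0.0395%). An unadjusted p below 0.05 was found for 1, 2 and 0 of 10, beside 4.87%, 14% and 6.18% of all probes. Gnb3 had the largest of the 10 values in the first step, 0.66 (adjusted p = 0.623), and in the second, -0.74 (adjusted p = 0.216). The slide model gave 0.46 and -0.44 (adjusted p = 0.449 and 0.391). The deposited table gave 0.10 and -0.88 (adjusted p = 0.989 and 0.552), where Cnga3 at 0.53 and Opn1sw at -1.04 were the largest. By the slide model on those values, an alternative chosen after seeing the data, the first turned to -0.0058 (adjusted p = 0.996) and the second was -0.23 (adjusted p = 0.945). The retina channel alone gave Gnb3 0.65 in the first step (adjusted p = 0.0969), where 0 of 10 and 1.72% of all probes passed. With the slide as a block, again chosen after seeing the data, it passed there at 0.70 (adjusted p = 0.0229), as 1 of 10 cone genes and 2.78% of all probes did.

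From P12 to P17 Gnat2 rose in control mice, and Gnat2, Opn1mw and Arr3 rose in OIR mice. These were 1 of 10 cone genes in controls, beside 1.28% of all probes, and 3 of 10 in OIR, beside 3.42%. By the slide model 5 of 10 passed in controls (3.17% of all probes), Opn1sw, Opn1mw, Arr3, Gnat2 and Pde6h, and 6 of 10 in OIR (7.25%), the same and Gngt2, all upward. The retina channel alone gave 6 of 10 in controls (3.01% of all probes) and 7 in OIR (8.08%), all upward, with Pde6c added in each. The deposited table gave 0 of 10 by limma in controls (2.57% of all probes), 2 at an unadjusted p below 0.05 (10.3%), and 1 in OIR (7.51%), which was Opn1sw. With an offset of 0, 2 of 10 passed in OIR (6.28% of all probes), Gnat2 and Pde6h. There Opn1mw at 0.47 and Arr3 at 0.61 did not pass in OIR (limma adjusted p = 0.339 each). In controls 0 of 10 passed (2.04%), with Gnat2 at 0.67 (adjusted p = 0.102). Without slides 4, 5, 6 and 9, an alternative chosen after seeing the data, 0 of 10 passed in controls (1.59% of all probes). There 5 of 10 control changes were above 0, with a median of 0.040. In OIR 6 of 10 passed by that fit (5.7%), and 10 of 10 were above 0, with a median of 0.49.

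Gnat2, the alpha subunit of transducin, ran from 2.83 to 4.51 with a median of 4.11 in controls and from 3.49 to 4.47 with a median of 3.80 in OIR mice at P17. Most P17 mice were high against the P12 values given above, 11 of 12 controls and 13 of 13 OIR mice above the P12 median of their group, though the ages overlapped. The log2 rise was 0.64 in controls (limma adjusted p = 0.00680) and 0.81 in OIR (adjusted p = 2.75e-05). It was 0.73 and 0.69 by the slide model (adjusted p = 1.82e-06 and 5.30e-07), and positive on 7 of 7 slides in controls and 6 of 7 in OIR. The deposited table had 0.64 and 0.53 (adjusted p = 0.318 and 0.294).

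Opn1mw, the opsin for middle wavelengths, ran from 2.04 to 3.00 with a median of 2.90 in P12 controls and from 2.64 to 3.59 with a median of 3.11 in P17 controls. In OIR mice the values were 1.80 to 2.90 (median 2.50) at P12 and 2.37 to 3.75 (median 3.25) at P17. The ages overlapped, with 9 of 12 control and 12 of 13 OIR mice of P17 above the earlier median. The log2 change was 0.44 in controls (limma adjusted p = 0.147) and 0.75 in OIR (adjusted p = 8.91e-05), and 0.58 and 0.69 by the slide model (adjusted p = 0.000185 and 4.41e-07). The deposited table gave 0.11 and 0.13 (adjusted p = 0.988 and 0.949). A second Opn1mw probe had 0.57 and 0.72 in the ratio without the slide.

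The cone arrestin Arr3, which ends the signal of the opsins, ran from 2.89 to 4.43 with a median of 3.69 in P12 controls and from 2.60 to 4.87 with a median of 4.51 in P17 controls. In OIR mice the values were 1.69 to 4.30 (median 3.32) and 3.47 to 5.05 (median 4.21). The ages overlapped, and 13 of 13 OIR mice of P17 lay above the P12 median. The log2 change was 0.62 in controls (limma adjusted p = 0.305) and 0.92 in OIR (adjusted p = 0.00602), and 0.80 and 0.75 by the slide model (adjusted p = 0.00104 and 0.000461). The deposited values gave 0.47 and 0.30 (adjusted p = 0.868 and 0.892).

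Opn1sw, the opsin for short wavelengths, ran from 0.089 to 0.38 with a median of 0.18 in P12 controls and from 0.12 to 0.68 with a median of 0.36 in P17 controls, close to 0 on a scale where both channels carry the offset. In OIR mice the values were 0.040 to 0.33 (median 0.19) and 0.12 to 0.61 (median 0.37). The ages overlapped. The log2 changes were 0.22 and 0.19 (limma adjusted p = 0.0884 and 0.103), and 0.23 and 0.16 by the slide model (adjusted p = 0.00237 and 0.0261). The deposited table gave 0.74 and 1.03 (adjusted p = 0.273 and 0.0116), and the fit with an offset of 0 gave 0.79 and 0.10 (adjusted p = 0.476 and 0.944).

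Pde6h ran from 3.06 to 5.09 with a median of 3.79 in P12 controls and from 3.05 to 5.93 with a median of 4.19 in P17 controls. In OIR mice the values were 2.18 to 4.93 (median 3.69) at P12, 3.39 to 5.32 (median 3.94) at P17 and 3.28 to 5.92 (median 4.93) at P28. The ages overlapped. The gene had log2 changes of 0.61 in controls and 0.66 in OIR (limma adjusted p = 0.512 and 0.259), and of 0.58 and 0.51 by the slide model (adjusted p = 0.0453 and 0.0451). Gngt2, the gamma subunit of transducin, had 0.31 in OIR (adjusted p = 0.269) and 0.30 by the slide model (adjusted p = 0.0416). The channel genes Cnga3 and Cngb3 did not pass in these fits.

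From P17 to P28 the direction of many cone genes depended on how the signals were processed. In control mice 2 of 10 passed, Opn1sw upward and Gngt2 downward, beside 13.4% of all probes. In OIR mice 7 of 10 passed, 4 upward and 3 downward, beside 40.6% of all probes. The slide model left 2 in controls (14.5% of all probes) and 2 in OIR (17.2%), Opn1sw upward and Gngt2 downward in each. In controls the deposited table gave 4 of 10, Opn1mw, Arr3, Gngt2 and Pde6h, all downward (19.7% of all probes), and the retina channel alone 5, 4 upward and 1 downward (15.3%). In OIR the deposited table gave 10 of 10, 1 upward and 9 downward (44.3% of all probes), and the retina channel alone 3, Gnat2 and Pde6h upward and Pde6c downward (38.6%).

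The reference RNA is common to all arrays, yet its channel moved as well. From P17 to P28, 8 of 10 cone genes passed in the reference channel of the OIR arrays, all upward, beside 6.38% of all probes. On the control arrays 2 of 10 did, Arr3 and Gnat2, upward, beside 0.377%. The difference between these steps passed for 0 of 10 (0.0018% of all probes). In OIR Gnb3 was higher in the reference by 0.86 (limma adjusted p = 0.000564) and Gnat2 by 0.62 (adjusted p = 1.07e-05). The part of this shift in the ratios was not tested.

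Gngt2 ran from 1.93 to 2.56 with a median of 2.35 in P17 controls and from 1.51 to 2.44 with a median of 1.75 in P28 controls. In OIR mice the values were 1.59 to 2.99 (median 2.51) and 1.47 to 2.48 (median 1.68). The P28 mice were low, 13 of 14 controls and 13 of 13 OIR mice below the P17 median, and the ages overlapped. The log2 change was -0.43 in controls (limma adjusted p = 0.0184) and -0.71 in OIR (adjusted p = 9.24e-06), and -0.40 and -0.40 by the slide model (adjusted p = 0.00443 and 0.0173). The calls were lost without slides 4, 5, 6 and 9, an alternative chosen after seeing the data, at -0.12 and -0.34 (adjusted p = 0.718 and 0.504). Within slides the change was below 0 on 6 of 6 in controls and 0.022 on the slide that P17 and P28 shared in OIR. Without the reference, in the retina channel alone, it was -0.21 and -0.063 (adjusted p = 0.0833 and 0.586).

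Opn1sw ran from 0.45 to 1.11 with a median of 0.69 in P28 controls and from 0.18 to 1.05 with a median of 0.67 in P28 OIR mice. Most P28 mice were high, 14 of 14 controls and 12 of 13 OIR mice above the P17 median, and the ages overlapped. The log2 change was 0.30 in controls (limma adjusted p = 0.000649) and 0.30 in OIR (adjusted p = 0.000138), and 0.19 and 0.18 by the slide model (adjusted p = 0.00902 and 0.0429). It turned in the deposited table to -0.77 in OIR (adjusted p = 0.0233). With an offset of 0 the OIR change was -0.16 and the control change 0.31 (limma adjusted p = 0.795 and 0.675). In the retina channel alone Opn1sw was not called in OIR, with means of 6.985 at P17 and 7.059 at P28. It was called there in controls, with means of 6.874 and 7.16. The deposited table did not call it in controls, with means of 3.5 and 3.767.

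Gnb3 ran from 2.58 to 3.66 with a median of 2.86 in P28 OIR mice, with 12 of 13 below the P17 median. The ages overlapped, and the log2 change in OIR was -0.69 (limma adjusted p = 0.000819), or -0.44 by the slide model (adjusted p = 0.0570). It was -0.041 in the retina channel alone (adjusted p = 0.850), beside the rise of the reference given above. The other genes that passed in OIR were Opn1mw at -0.50, Pde6h at 0.83, Cnga3 at 0.50 and Cngb3 at 0.57 (adjusted p = 0.00229, 0.00920, 0.00344 and 0.0180). The slide model gave -0.25, 0.33, 0.19 and 0.22 (adjusted p = 0.193, 0.319, 0.137 and 0.258). The retina channel alone gave -0.082, 0.73, 0.10 and 0.069 (adjusted p = 0.632, 0.000284, 0.346 and 0.672). Pde6h turned to -1.35 and Cnga3 to -0.64 in the deposited table (adjusted p = 2.54e-05 and 0.0307). On the brighter slides the OIR means at P17 (n = 2) and P28 (n = 11) were 5.231 and 5.187 for Pde6h. They were 1.611 and 1.431 for Cngb3, 1.189 and 1.264 for Cnga3, and 2.679 and 2.676 for Opn1mw. On the other slides (n = 11 and 2) Pde6h had 3.925 and 3.699, and Cngb3 0.5285 and 0.3723. There Cnga3 had 0.5161 and 0.3005, and Opn1mw 3.324 and 2.982. The split by brightness was chosen after seeing the data.

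**Figure D3:**
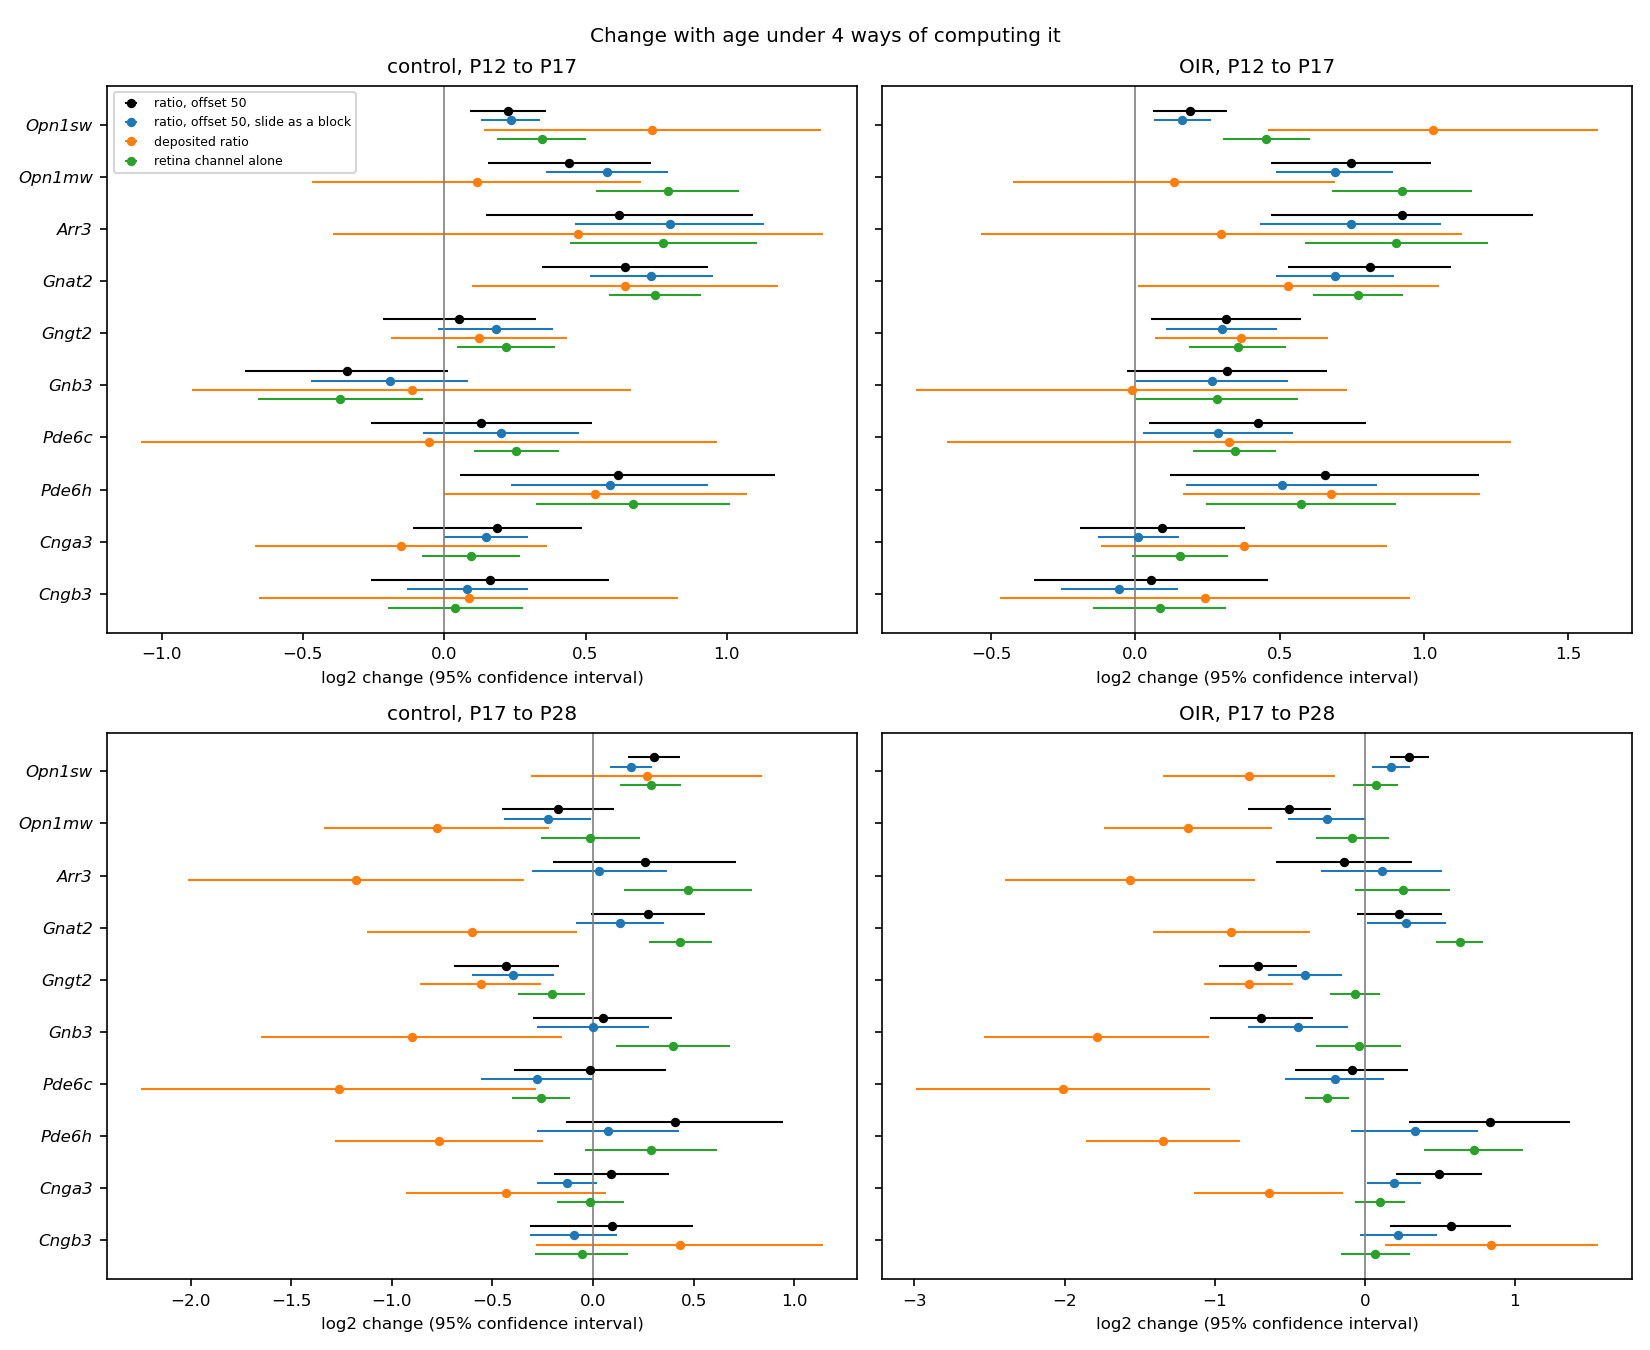
Log2 change with age (horizontal axes) of the 10 genes in control and OIR mice, with 95% confidence intervals, for the ratio, the ratio with the slide as a block, the deposited table and the retina channel alone. From P12 to P17 the interval of Gnat2 lies above 0 in all of these and in both oxygen groups, while from P17 to P28 in OIR the deposited table gives 9 of 10 genes below 0.

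Probes of the same gene differed in places. From P17 to P28 the brightest Arr3 probe had a log2 change of 0.26 in controls and the second 0.85 (limma adjusted p = 0.517 and 0.00159). Both turned in the deposited table, to -1.18 and -0.77 (adjusted p = 0.0378 and 0.186). In OIR the Opn1mw probes had -0.50 and 0.027, and the Pde6c probes -0.087 and 0.67. The reference was well above background on 63 and 37 arrays for the Arr3 probes, 77 and 44 for Opn1mw, and 34 and 5 for Pde6c.

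Genes that end and regulate the light response were followed as a list. At P17 1 of 12 passed for OIR against control, beside 1.14% of all probes. It was Guca1a, an activator of retinal guanylate cyclase, whose mean was 2.50 ± 0.27 (SD, n = 13) after hyperoxia. The controls had 3.08 ± 0.46 (SD, n = 12). The log2 difference was -0.58 (limma adjusted p = 0.0434), or -0.62 by the slide model (adjusted p = 0.0164), which called 1 of the list and 1.5% of all probes. The deposited table called 0 of the list and 2.64% of all probes. From P12 to P17 3 of 12 rose in controls, beside 1.28% of all probes, and 3 of 12 in OIR, beside 3.42%, Grk1, Guca1a and Guca1b in each. From P17 to P28 2 passed in controls (1 upward and 1 downward), beside 13.4% of all probes, and 9 in OIR (7 upward and 2 downward), beside 40.6%. The slide model gave 4 in controls (1 upward and 3 downward), beside 14.5%, and 5 in OIR (4 upward and 1 downward), beside 17.2%. The calls of the deposited table were 4, beside 19.7%, and 7, beside 44.3%, all downward.

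Of the rod counterparts 0 of 10 passed for OIR against control at P17 by limma (1.14% of all probes), with 1 at an unadjusted p below 0.05 (10.4%). From P12 to P17 0 passed in controls (1.28%) and 0 in OIR (3.42%). An unadjusted p below 0.05 was found for 1 in controls (8.22% of all probes) and 2 in OIR (10.6%). The slide model called 2 (3.17% of all probes) and 2 (7.25%), Gnat1 and Pde6a upward in each. Outer segment structure genes had 0 of 10 at P17 by limma (unadjusted 1) and photoreceptor fate factors 0 of 10 (unadjusted 1). Of the fate factors Prdm1 fell from P12 to P17 in both oxygen groups, 1 and 1 of the list, beside 1.28% and 3.42% of all probes.

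At P17, where limma called 1.14% and the slide model 1.5% of all probes, and 10.4% had an unadjusted p below 0.05 by limma, the other lists stood as follows. Rpe65 of the visual cycle was lower in OIR, 1 of 10, by a log2 difference of -0.81 (limma adjusted p = 0.0321, 0.0788 by the slide model). Nefl and Slc6a9 of the amacrine and ganglion cell list, 2 of 7, had -0.77 and -0.36 (adjusted p = 0.0478 and 0.0312, by the slide model 0.00423 and 0.0571). ON bipolar genes, among which Gnb3 could also be counted, had 0 of 7 by limma (unadjusted 3) and 2 by the slide model, Gng13 and Prkca, both lower in OIR, whereas the Gnb3 value was above 0. Cone bipolar genes had 0 of 4 (unadjusted 3), Mueller glia 0 of 6 (3), pigment epithelium 0 of 5 (1) and lens 0 of 5 (0). At P12 and at P28 no gene of these lists passed by limma, with 3 and 5 at an unadjusted p below 0.05, beside 3.13% and 7.44% of all probes. Summed lens signal in the retina channel, of which Cryaa was the brightest, ran from 288 to 2421 with a median of 318 at P17 and from 296 to 82570 with a median of 1706 at P28 in OIR mice. In controls it ran from 305.3 to 2329 with a median of 405.7 at P17 and from 296.2 to 197600 with a median of 1030 at P28. Its part in the age changes was not tested.

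Over the 77 arrays, after group means were taken off, the cone genes varied together to different degrees. The Pearson correlation with the mean of the other 9 was 0.934 for Pde6c and 0.925 for Gnat2, and 0.0369 for Gngt2. With slides taken off as well it was 0.873, 0.857 and 0.198. Of 7539 genes ranked, those outside the lists most like the cone genes were Osbp2 (0.899), Cadps (0.893), Kcna6 (0.892), Lrit1 (0.886), Tub (0.885), Scrt1 (0.884), Adgrb1 (0.883) and Wdr17 (0.883). Genes inside the lists are not among these. Their highest correlations were 0.955 in the rod list, above all of these, 0.868 among the genes that end and regulate the response, 0.858 among fate factors, 0.837 among outer segment genes, 0.826 in Mueller glia and 0.806 in ON bipolar cells. The order of the named genes changed with slides taken off: Lrit1 was at rank 1 (0.876) and Osbp2 at rank 7, while Tub, Cadps, Wdr17, Kcna6, Adgrb1 and Scrt1 were at ranks 11, 16, 18, 29, 58 and 72 (0.706 for Scrt1). The arrays share slides and normalization, so these correlations are descriptions.

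Promoters are shown for cone genes that rose from P12 to P17 by the slide model in both oxygen groups, so that genes moving together can be read side by side. They are the 250 bases before a start listed for the gene by RefSeq (GRCm38.p6), 5′ to 3′ on the strand of the gene, and 6 of 10 cone genes had an entry. The windows of Gnat2 and Pde6h lie inside the annotated span of the gene, and that of Arr3 reaches into it. Capitals mark GGATTA, a core bound by the photoreceptor factor CRX, or AGGTCA, a nuclear receptor half-site, on either strand. They occur in 6.25% and 14.0% of 32851 promoters. The windows are chr6:29380514-29380763 (minus strand) for Opn1sw, chrX:74127216-74127465 (plus strand) for Opn1mw, chrX:100605247-100605496 (plus strand) for Arr3, chr3:108092816-108093065 (plus strand) for Gnat2 and chr6:136954273-136954522 (plus strand) for Pde6h.
Opn1sw: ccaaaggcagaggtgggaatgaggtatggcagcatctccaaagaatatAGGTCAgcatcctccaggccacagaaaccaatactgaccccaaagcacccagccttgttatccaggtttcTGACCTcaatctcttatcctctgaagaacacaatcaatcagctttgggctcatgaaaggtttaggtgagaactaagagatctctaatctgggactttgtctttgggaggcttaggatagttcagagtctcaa
Opn1mw: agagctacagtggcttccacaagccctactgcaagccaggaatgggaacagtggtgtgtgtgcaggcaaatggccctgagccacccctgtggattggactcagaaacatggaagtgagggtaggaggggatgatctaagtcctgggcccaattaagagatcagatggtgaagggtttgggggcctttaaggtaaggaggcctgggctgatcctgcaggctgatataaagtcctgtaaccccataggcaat
Arr3: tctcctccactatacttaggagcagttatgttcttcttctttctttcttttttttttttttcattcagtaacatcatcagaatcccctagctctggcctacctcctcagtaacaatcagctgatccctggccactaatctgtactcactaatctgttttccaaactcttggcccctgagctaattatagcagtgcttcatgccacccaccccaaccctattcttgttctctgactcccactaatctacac
Gnat2: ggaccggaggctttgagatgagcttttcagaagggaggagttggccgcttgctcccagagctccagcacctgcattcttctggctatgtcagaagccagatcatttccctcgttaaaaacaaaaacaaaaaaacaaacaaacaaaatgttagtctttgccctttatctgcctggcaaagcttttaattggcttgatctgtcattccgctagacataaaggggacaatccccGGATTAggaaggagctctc
Pde6h: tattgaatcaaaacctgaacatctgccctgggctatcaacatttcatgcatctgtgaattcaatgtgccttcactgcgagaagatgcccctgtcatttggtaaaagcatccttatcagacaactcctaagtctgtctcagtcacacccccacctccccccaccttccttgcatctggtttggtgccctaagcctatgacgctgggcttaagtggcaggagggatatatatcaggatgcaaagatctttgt
Opn1sw held 2 half-site matches and Gnat2 1 match to the CRX core. The letters searched are not in the windows of Opn1mw, Arr3 and Pde6h.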

How the data were processed

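Retinal RNA of 77 mice was measured on 2-color Agilent arrays. Per the file headers, spot signals are intensity values from Agilent Feature Extraction 10.7.3.1, which also wrote the log10 ratio of Cy5 to Cy3. The table deposited by the authors is in log2 units: on every array 100% of single-spot probes equaled the log2 ratio of processed Cy3 to Cy5 within 0.001, and array medians lay from -0.127 to 0.00993.

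Median signals were background-corrected (normexp, offset 50) and loess-normalized within arrays in limma 3.58.1 (R 4.3.3), with control spots given no weight. Outlier spots, 0.592% to 0.951% per array, were left out, and spots of a probe were averaged. Moderated tests with Benjamini-Hochberg adjustment covered 55681 probes, OIR against control within each day, and age steps and changes of the OIR effect in a model of 6 groups. Transcripts of 28026 probes matched a RefSeq symbol, and a gene stood for its brightest probe. Well above background is the call of the scanner software. The genes named are the cone genes, list genes that passed in an OIR comparison or had the largest changes, and the 8 genes most like the cone genes; Grk1, Guca1b, Prdm1, Gnat1 and Pde6a were named after their values were seen. The number of arrays limits the precision. The fit was tested on simulated data without slide effects, so that test does not bear on the dependence on slide.

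Other ways of processing tried were fits lacking background subtraction, with an offset of 0, on the scanner log ratio, on the deposited table, on the retina channel alone (quantile-normalized), with the slide as a block, with a filter on dim probes, with array weights, with a trended robust prior, with all groups in a single model, on the second-brightest probe, and on slides with both groups. Chosen after seeing the data were the deposited table and the retina channel each with the slide as a block, a fit without slides 4, 5, 6 and 9, and a fit of the reference channel. The members and lists were chosen with earlier results of these data known.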

Additional observations from a re-analysis of the deposited data

How the results depend on the processing

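The cone genes called, of 10, were 1 for control P12 to P17 (1.28%), 2 for control P17 to P28 (13.4%), 3 for OIR P12 to P17 (3.42%), 7 for OIR P17 to P28 (40.6%), and 0 by limma for OIR against control on each day and for each change of the OIR effect. The share of all probes called stands in brackets. The counts that moved by over 1.5 times, or from or to 0, were as follows. Smaller moves are not listed. Without background subtraction: 2 for control P12 to P17 (1.85%). With an offset of 0: 0 for control P12 to P17 (2.04%), 1 for control P17 to P28 (12.4%). With the scanner log ratio: 0 for control P12 to P17 (2.65%), 4 for control P17 to P28 (17.5%), 1 for OIR P12 to P17 (7.59%). In the deposited table: 0 for control P12 to P17 (2.57%), 4 for control P17 to P28 (19.7%), 1 for OIR P12 to P17 (7.51%). In the retina channel alone: 1 for OIR against control at P17 (2.99%, Gnb3), 6 for control P12 to P17 (3.01%), 5 for control P17 to P28 (15.3%), 7 for OIR P12 to P17 (8.08%), 3 for OIR P17 to P28 (38.6%). By the slide model: 5 for control P12 to P17 (3.17%), 6 for OIR P12 to P17 (7.25%), 2 for OIR P17 to P28 (17.2%). With array weights: 3 for control P12 to P17 (2.68%), 6 for control P17 to P28 (34.1%), 5 for OIR P12 to P17 (8.05%). On slides with both groups: 1 for OIR against control at P17 (3.89%, Gnb3). In the deposited table by the slide model: 2 for control P12 to P17 (4.18%), 6 for control P17 to P28 (17.3%), 3 for OIR P17 to P28 (12.2%). In the retina channel alone by the slide model: 1 for OIR against control at P17 (3.55%, Gnb3), 6 for control P12 to P17 (5.92%), 6 for control P17 to P28 (18.9%), 7 for OIR P12 to P17 (13.4%), 1 for OIR P17 to P28 (16.8%), 1 for OIR effect P12 to P17 (2.78%, Gnb3). Without slides 4, 5, 6 and 9: 5 for OIR against control at P28 (8.18%), 0 for control P12 to P17 (1.59%), 6 for OIR P12 to P17 (5.7%), 0 for OIR P17 to P28 (0.647%), 1 for OIR effect P17 to P28 (0.329%, Opn1sw). No count moved by over 1.5 times with the filter on dim probes, the trended robust prior, a single model or the second-brightest probe. A count that did not move could be of other genes: without slides 4, 5, 6 and 9 the 2 for control P17 to P28 (1.89%) were Gnat2 and Opn1sw, both upward, and no longer Gngt2, and with an offset of 0 the 7 for OIR P17 to P28 (31.9%) were all downward. The cause was not tested.

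Of the log2 values followed for single genes by the brightest probe, these turned their direction, and the cause was not tested. Without background subtraction: Arr3 control P17 to P28 -0.079. With an offset of 0: Gnat2 OIR against control at P17 0.11, Pde6h OIR against control at P17 0.042, Pde6h OIR against control at P28 -0.21, Arr3 control P17 to P28 -0.69, Opn1sw OIR P17 to P28 -0.16, Pde6h OIR P17 to P28 -0.65. With the scanner log ratio: Arr3 OIR against control at P17 -0.012, Gnat2 OIR against control at P17 0.069, Pde6h OIR against control at P17 0.29, Pde6h OIR against control at P28 -0.29, Cnga3 OIR against control at P28 -0.17, Arr3 control P17 to P28 -1.18, Opn1sw OIR P17 to P28 -0.77, Pde6h OIR P17 to P28 -1.35, Cnga3 OIR P17 to P28 -0.64. In the deposited table: Arr3 OIR against control at P17 -0.012, Gnat2 OIR against control at P17 0.069, Pde6h OIR against control at P17 0.29, Pde6h OIR against control at P28 -0.29, Cnga3 OIR against control at P28 -0.17, Arr3 control P17 to P28 -1.18, Opn1sw OIR P17 to P28 -0.77, Pde6h OIR P17 to P28 -1.35, Cnga3 OIR P17 to P28 -0.64. In the retina channel alone: Pde6c OIR against control at P28 0.092. By the slide model: Arr3 OIR against control at P28 0.029, Pde6c OIR against control at P28 0.24. With array weights: Arr3 OIR against control at P17 -0.089, Pde6c OIR against control at P28 0.042, Pde6c OIR P17 to P28 0.0079. On slides with both groups: Arr3 OIR against control at P28 0.029, Pde6c OIR against control at P28 0.24. In the deposited table by the slide model: Arr3 OIR against control at P17 -0.27, Pde6h OIR against control at P17 0.32, Pde6c OIR against control at P28 0.051, Arr3 control P17 to P28 -0.75, Opn1sw OIR P17 to P28 -0.46, Pde6h OIR P17 to P28 -1.12, Cnga3 OIR P17 to P28 -0.48, Gnb3 OIR effect P12 to P17 -0.0058. In the retina channel alone by the slide model: Gngt2 OIR against control at P17 -0.025, Arr3 OIR against control at P28 0.020, Pde6c OIR against control at P28 0.20. Without slides 4, 5, 6 and 9: Gnat2 OIR against control at P17 0.10, Pde6h OIR against control at P17 0.084, Pde6h OIR against control at P28 -0.98, Cnga3 OIR against control at P28 -0.42, Opn1sw OIR P17 to P28 -0.094, Pde6h OIR P17 to P28 -0.23, Cnga3 OIR P17 to P28 -0.22, Cngb3 OIR P17 to P28 -0.16. Of all 100 values of a cone gene in a comparison, 36 turned in the deposited table (3 of them past the threshold both ways), 21 in the retina channel alone, 23 by the slide model and 31 without slides 4, 5, 6 and 9.

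Among the brightest probes, signal over background limits the ratios most for Cngb3, Opn1sw and Cnga3. Their reference signal was well above background on 0, 4 and 11 of 77 arrays. For the second Pde6c probe it was so on 5. No paired analysis was possible because each mouse has a number of its own and no OIR mouse is matched to a control.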
